A study of Mus musculus with 6 samples.

Results

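The 10 genes that supply membrane to the growing autophagosome and fuse it with the lysosome were followed in microglia of Atg7 knockout mice: Atg9a, Atg2a, Atg2b, Vmp1, Tmem41b, Wipi1, Wipi2, Wdr45, Wdr45b and Stx17. They were chosen by name from the gene symbols of the deposited count table, before any filter, and are 10 of its 55487 genes. Each symbol had 1 row, and all 10 were among the 15787 genes that passed the filter on low counts. Microglia were sorted as live CD11b+ cells with intermediate CD45 from the cortex of females at 20 months of age. The 3 control mice had the genotype Atg7-fl/fl, and the 3 knockout mice were Atg7-fl/fl;Cx3cr1-CreERT2, so both groups carried floxed Atg7 and differed in the Cre allele. CreERT2 is a Cre recombinase fused to an estrogen receptor domain and is active after tamoxifen. The time of any such treatment is not given in the labels. The Cre is driven from Cx3cr1, which microglia share with border-associated macrophages and some blood monocytes.

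Autophagy encloses cytoplasm in a double membrane, the phagophore, that closes into an autophagosome and fuses with a lysosome. ATG9A is a lipid scramblase on the small vesicles that seed the phagophore. ATG2A and ATG2B are rod-shaped proteins that carry lipids to it from the endoplasmic reticulum, where the scramblases VMP1 and TMEM41B sit. The WIPI proteins, which are WIPI1, WIPI2, WDR45B (also called WIPI3) and WDR45 (also called WIPI4), are beta-propellers that bind the lipid PI3P on the phagophore. WIPI2 recruits the ATG16L1 complex that lipidates LC3, whereas WDR45 and WDR45B bind ATG2 proteins. STX17 is a SNARE of closed autophagosomes that drives fusion with lysosomes. ATG7 is the activating enzyme of the LC3 and ATG12 conjugation systems, which act beside this membrane supply. Loss-of-function variants of human WDR45 cause a neurodegeneration with iron accumulation in the brain.

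The deepest control held 39389527 reads, while control 3 held 1254380 and knockout 2 held 3789208. Shallow refers below to control 3 and knockout 2, and the other 4 libraries held 21282335 reads or more. Levels are given in CPM, reads of a gene relative to the TMM-scaled library total, and 3 reads corresponded to 0.0789 CPM in control 1 and to 2.36 CPM in control 3. Atg7 itself was at 65.7, 66.4 and 56.6 CPM across controls 1 to 3, against 25.0, 26.5 and 23.7 CPM across knockouts 1 to 3 (log2 fold change -1.33 with an SE of 0.19, edgeR adjusted p = 0.0147), in the direction of the labels. Exons outside the deleted part are still counted. Cx3cr1, whose locus carries the Cre, was called lower (log2 fold change -1.17 with an SE of 0.13, edgeR adjusted p = 0.00126). The microglial markers were abundant in every library, with P2ry12 at a mean of 11910 CPM among controls and 11640 CPM among knockouts. Of 10 border-associated macrophage markers, all 10 had a fold change above 0, with a median log2 fold change of 2.38. Over all genes tested 47.5% were below 0. EdgeR called 0 of these markers (0.0443% of all genes tested) and had 4 higher at an unadjusted p under 0.05 (2.34%). Every knockout lay above every control for 3 of them (6.59% of all genes tested). The summed level of the 10 markers ranged from 18.1 to 88.8 CPM among controls and from 68.7 to 276 CPM among knockouts. The sum of 5 neutrophil markers ranged from 20.1 to 163 CPM and from 87.0 to 890 CPM in the same order. The summed level of 8 microglial markers, which include Cx3cr1, ranged from 52190 to 56370 CPM among controls and from 39340 to 44350 CPM among knockouts. The summed levels of monocyte, neuronal, astrocyte, oligodendrocyte and endothelial markers overlapped between the groups. By control means, Slc1a3 held 287.5 of the 297.5 CPM of the astrocyte sum and Pecam1 53.85 of the 55.45 CPM of the endothelial sum. All 5 tested monocyte markers had a fold change above 0. Every knockout lay above every control for 2 monocyte markers and 1 astrocyte marker, and below for 1 neuronal marker. The groups did not overlap in 11.1% of all genes tested, 6.59% with the knockouts higher. The 4 T and B cell markers summed to at most 1.04 CPM in any library, with Ms4a1 at 0 reads throughout. The part of these markers in the results was not tested.

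The comparison asked whether the messages of this machinery differed between the knockouts and the controls, where effects of the Cre allele and of Atg7 loss cannot be told apart. None of the 10 genes was called: edgeR's quasi-likelihood test with Benjamini-Hochberg adjustment over all genes called 0 of 10 at an adjusted p under 0.05, against 7 of 15787 genes tested (0.0443%). DESeq2 called 0 of 10 (0.527% of its genes) and limma voom 0 of 10 (0.095%). At an unadjusted p under 0.05 edgeR had 1 of the 10, Atg2a, where the share over all genes tested was 4.32%, and 2.34% for higher genes alone. The fold change was above 0 in 4 genes and below 0 in 6 (47.5% of all genes tested were below 0), with a median log2 fold change of -0.06 beside 0.02 over all genes tested. The 10 genes summed to 445, 456 and 366 CPM across controls 1 to 3, against 412, 440 and 413 CPM across knockouts 1 to 3. In bulk RNA, fewer cells of a type and less RNA per cell cannot be told apart.

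**Figure D1:**
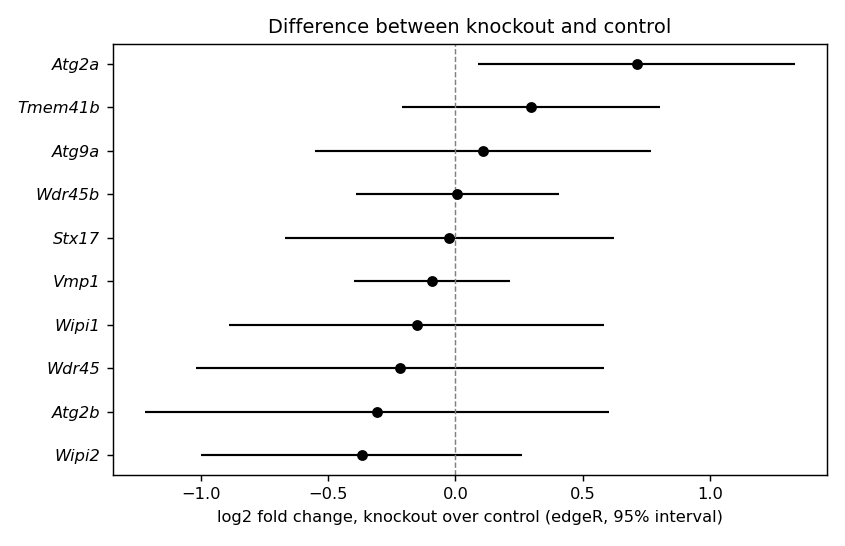
Log2 fold change of knockout over control for each of the 10 genes from the edgeR fit of all 6 libraries, with 95% intervals as bars and the dashed line at no difference. The interval of Atg2a lies above 0 before adjustment, and those of the other 9 genes include 0.

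The lipid transfer genes Atg2a and Atg2b had fold changes on opposite sides of 0. Atg2a was at 15.1, 12.4 and 11.0 CPM across controls 1 to 3, against 15.7, 28.1 and 21.1 CPM across knockouts 1 to 3. Every knockout library lay above every control library, although knockout 1 and control 1 differed by less than their counting intervals. Its mean was 12.8 CPM ± 2.06 (SD, n = 3) among controls and 21.6 CPM ± 6.20 among knockouts, which edgeR put at 0.71 on the log2 scale (SE 0.29, 95% interval 0.09 to 1.33, adjusted p = 0.999). The log2 fold change was 0.41 without both shallow libraries and 0.48 without knockout 2, whose level was the highest, and the adjusted p over all alternatives ranged from 0.575 to 1. In knockouts 1 to 3 the border macrophage markers summed to 276, 177 and 68.7 CPM, and their part in this result was not tested. Atg2a was the only one of the 10 genes whose groups did not overlap, where 11.1% of all genes tested had groups that did not and 6.59% were so separated with the knockouts higher.

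Atg2b, the paralog with the same role in lipid transfer, was at 7.47, 8.12 and 4.72 CPM across the controls, against 4.65, 6.49 and 5.95 CPM across the knockouts. Its log2 fold change of -0.31 had an SE of 0.43 (edgeR adjusted p = 0.999, 95% interval -1.22 to 0.60). Control 3, with 6 reads of Atg2b (1.73 to 10.3 CPM by an exact Poisson interval), lay among the knockouts, and the groups overlapped. Without both shallow libraries the log2 fold change was -0.57 (edgeR adjusted p = 0.855).

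The share of Atg2a in the reads of the pair does not depend on how libraries are scaled. It was 66.9%, 60.5% and 70.0% across controls 1 to 3, against 77.2%, 81.2% and 78.0% across knockouts 1 to 3. All knockouts were above all controls. The mean share was 65.8% ± 4.86 (SD, n = 3) in the controls and 78.8% ± 2.14 in the knockouts, a difference of 13 percentage points. The two-sided exact permutation test gave p = 0.1, the smallest that 3 against 3 allows, and p = 0.3 after adjustment over the 3 paralog pairs tested. The share of control 3 rests on 20 reads, with an exact 95% binomial interval of 45.7% to 88.1% that covers the knockout values. Intervals cover counting error only, and no molecular identifiers are mentioned, so duplicated reads could make them too narrow. With both shallow libraries left out the difference was 13.9 points, and with any 1 library left out it was 10.3 to 15.1 points.

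**Figure D2:**
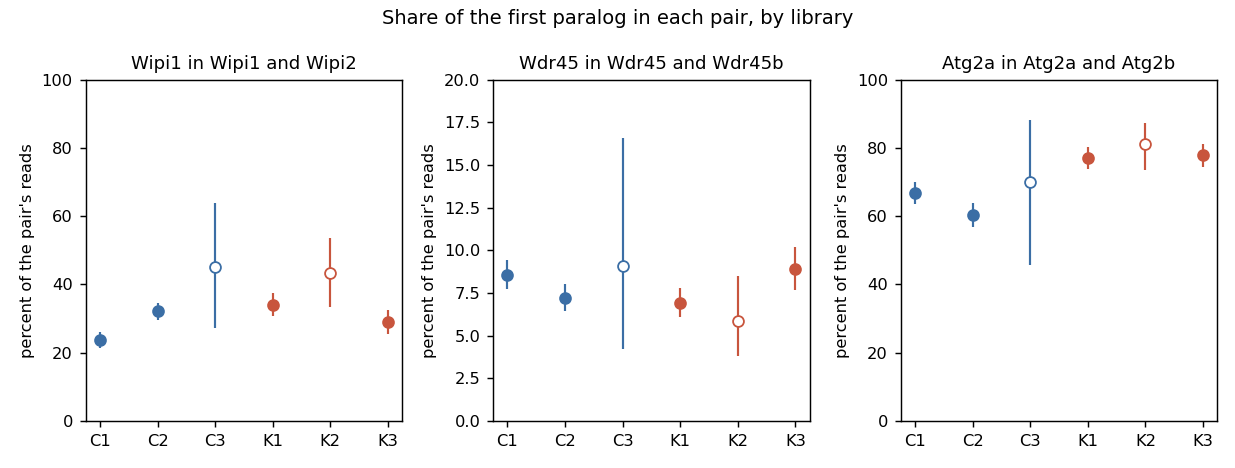
Percent of a pair's reads that belong to the first-named paralog, by library (C1 to C3 controls, K1 to K3 knockouts; open points are the shallow libraries; bars are exact 95% binomial intervals; the middle panel has a shorter axis than the others). The Atg2a share is 60.5% to 70.0% in the controls and 77.2% to 81.2% in the knockouts, while the shares in the WIPI pairs overlap between the groups.

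The sequences upstream of the Atg2a and Atg2b starts are shown because the Atg2a share was the only share of the 3 paralog pairs whose groups did not overlap. They are the 250 bases before the RefSeq start in GRCm38.p6, in 5′ to 3′ direction of the gene, at chr19:6241418-6241667 on the plus strand and chr12:105685242-105685491 on the minus strand. Capitals mark the CCAAT box (CCAAT or ATTGG) and the GC box (GGGCGG or CCGCCC), which were searched on both strands.
Atg2a: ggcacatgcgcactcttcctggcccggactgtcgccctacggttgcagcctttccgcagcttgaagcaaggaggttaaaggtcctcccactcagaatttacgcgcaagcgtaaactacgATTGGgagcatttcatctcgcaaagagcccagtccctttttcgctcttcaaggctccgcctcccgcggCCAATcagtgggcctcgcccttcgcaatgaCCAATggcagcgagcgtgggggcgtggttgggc
Atg2b: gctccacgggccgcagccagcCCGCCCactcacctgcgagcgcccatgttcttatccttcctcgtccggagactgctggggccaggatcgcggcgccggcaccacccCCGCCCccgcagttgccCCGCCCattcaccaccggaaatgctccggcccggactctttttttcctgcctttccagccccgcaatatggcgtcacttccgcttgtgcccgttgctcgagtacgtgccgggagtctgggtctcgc
The Atg2a window held 3 CCAAT boxes and 0 GC boxes, and the Atg2b window held 0 CCAAT boxes and 3 GC boxes. Windows were found for 9 of the 10 genes, all except Wdr45b. A CCAAT box stood in 4 of their 11 windows (those of Atg2a, Atg9a, Tmem41b and Wdr45) and in 33.8% of all 32851 windows of this length. A GC box stood in 5 of the 11 windows (those of Atg2b, Stx17, Tmem41b, Wipi1 and Wipi2) and in 32.7% of all windows. The E-box CACGTG, the core of the CLEAR element that the lysosomal regulator TFEB binds, was in 0 of the 11 windows of these genes and in 6.02% of all windows. A match is a description of letters and was not tested for binding. In both windows no match overlapped another. The submitters' processing notes name GRCm39 for the counts, so these coordinates locate the windows only.

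Atg9a, the seed vesicle scramblase, was at 12.6, 18.9 and 21.2 CPM across controls 1 to 3, against 14.0, 26.0 and 16.3 CPM across knockouts 1 to 3. The groups overlapped, and the highest and the lowest library of the set were a knockout and a control. The log2 fold change was 0.11 (SE 0.31, edgeR adjusted p = 0.999, 95% interval -0.55 to 0.77). In the GENCODE M21 annotation Atg9a shares 32.6% of its exonic bases with Ankzf1 and Gm29253, nearly all of them on the same strand (31.8%), so its counts are uncertain.

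The endoplasmic reticulum scramblase genes differed in level and in precision. Vmp1, the most abundant of the 10, was at 209, 208 and 193 CPM across controls 1 to 3, against 195, 186 and 190 CPM across knockouts 1 to 3. Control 3 lay among the knockouts, so that the groups overlapped. The control mean was 203 CPM ± 9.16 (SD, n = 3) and the knockout mean 191 CPM ± 4.35 (log2 fold change -0.09 with an SE of 0.14, edgeR adjusted p = 0.999), and the 95% interval of the fold, 0.758 to 1.16, was the narrowest of the set. The microRNA gene Mir21a covers 2.38% of the Vmp1 exonic bases.

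Tmem41b was at 33.1, 42.0 and 21.2 CPM across the controls, against 42.1, 42.1 and 37.3 CPM across the knockouts. The knockouts were close to each other and overlapped with the controls, which were spread out by control 3 (27 reads). The log2 fold change was 0.30 (SE 0.24, edgeR adjusted p = 0.999, 95% interval -0.21 to 0.80), and it was 0.08 without both shallow libraries, 0.10 without control 3 and 0.54 without control 2.

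Among the PI3P-binding genes, Wipi2 had the lowest fold change of all 10. It was at 28.2, 24.8 and 13.4 CPM across controls 1 to 3, against 15.6, 14.3 and 23.1 CPM across knockouts 1 to 3. Control 3 was below all knockouts, and knockout 3 was well above it, so the groups overlapped. The log2 fold change was -0.37 (SE 0.29, edgeR adjusted p = 0.999, 95% interval -1.0 to 0.26). Without control 3 it was -0.58 (edgeR adjusted p = 0.662), without control 1 it was -0.16, and voom gave -0.52 (adjusted p = 0.532).

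Wipi1 was at 8.76, 11.8 and 11.0 CPM across the controls, against 8.08, 10.9 and 9.39 CPM across the knockouts, with overlapping groups (log2 fold change -0.15 with an SE of 0.35, edgeR adjusted p = 0.999). It ran from -0.28 without control 1 to -0.041 without control 2. Its share in the reads of Wipi1 and Wipi2 was 23.7%, 32.1% and 45.2% across controls 1 to 3, against 34.1%, 43.3% and 28.9% across knockouts 1 to 3. The spread within each group was larger than the difference of 1.79 percentage points between the means (exact permutation p = 0.8, two-sided).

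By group means of CPM, Wdr45b was the most abundant WIPI gene and Wdr45 the least abundant, although Wdr45 was above Wipi1 in control 1. Wdr45b was at 109, 105 and 70.7 CPM across controls 1 to 3, against 97.9, 105 and 86.7 CPM across knockouts 1 to 3, and its log2 fold change was close to 0 (95% interval -0.39 to 0.41, edgeR adjusted p = 0.999). The groups overlapped through control 3, and without both shallow libraries the log2 fold change was -0.22 (adjusted p = 0.86). Wdr45 was at 10.2, 8.20 and 7.07 CPM across the controls, against 7.28, 6.49 and 8.46 CPM across the knockouts, with overlapping groups (log2 fold change -0.22 with an SE of 0.38, edgeR adjusted p = 0.999). It ran from -0.34 without knockout 3 to -0.049 without control 1.

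Wdr45 made up 8.29% ± 0.964 (SD, n = 3) of the reads of Wdr45 and Wdr45b in the controls and 7.22% ± 1.55 in the knockouts. The difference of -1.07 percentage points was within the spread between libraries (exact permutation p = 0.4, two-sided). Wdr45 shares 24.7% of its exonic bases with the predicted gene Gm45208, so its counts are uncertain.

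The fusion SNARE gene Stx17 was at 11.3, 16.4 and 13.4 CPM across controls 1 to 3, against 11.7, 14.6 and 14.4 CPM across knockouts 1 to 3. The knockouts lay within the range of the controls. The log2 fold change of -0.02 had an SE of 0.30 (edgeR adjusted p = 0.999, 95% interval -0.67 to 0.62).

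**Figure D3:**
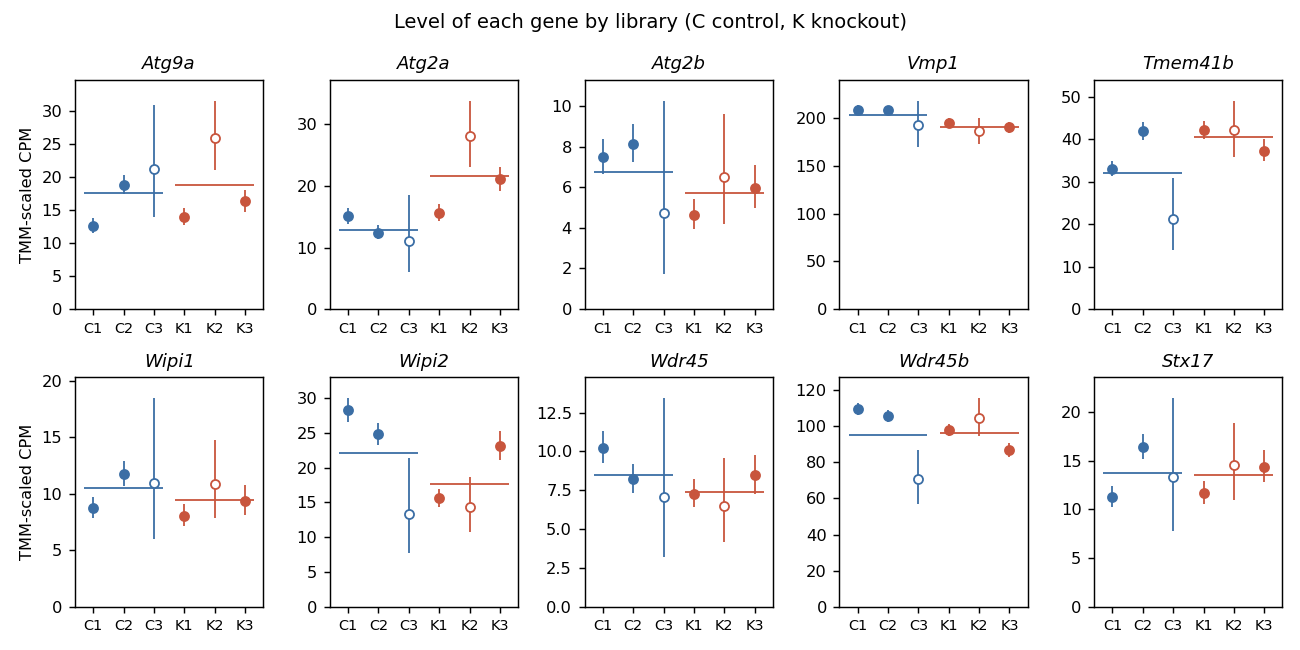
TMM-scaled CPM of each gene in each library, on axes that start at 0 and differ between panels (C1 to C3 controls in blue, K1 to K3 knockouts in red; open points are the shallow libraries; bars are exact 95% Poisson counting intervals; lines are group means). Atg2a is the panel in which no knockout falls to the level of a control, and the open control point is the lowest control in 7 of the 10 panels, Atg2a included (all except Atg9a, Wipi1 and Stx17).

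A difference that did not pass the test does not show that the levels were alike. The 95% interval of the fold lay between 0.5 and 2 in 7 of the 10 genes (Atg9a, Vmp1, Tmem41b, Wipi1, Wipi2, Wdr45b and Stx17). It reached beyond these bounds for Atg2a (1.07 to 2.52), Atg2b (0.43 to 1.52) and Wdr45 (0.494 to 1.5). Among the 4 deeper libraries alone the groups did not overlap in 5 of the 10 genes: the Atg2a levels were higher in knockouts 1 and 3, and those of Atg2b, Vmp1, Wipi2 and Wdr45b were lower. Over all genes tested 36.5% were so separated, 18.2% in each direction.

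The order of the levels was compared per kilobase of exon, with union exon lengths from GENCODE M21. Vmp1 was first at 52.6 CPM per kb ± 2.37 (SD, n = 3) in the controls, Wdr45b second at 20.9 ± 4.65 and Tmem41b next at 5.46 ± 1.77. Atg9a (3.05 ± 0.776), Wdr45 (2.57 ± 0.483), Wipi1 (2.38 ± 0.353), Stx17 (2.31 ± 0.434), Wipi2 (2.10 ± 0.739) and Atg2a (1.67 ± 0.268) followed, each overlapping with the next in this sequence. Atg2b was last at 0.503 CPM per kb ± 0.134. Vmp1, Wdr45b and Atg2b did not overlap with their neighbours, whereas Tmem41b overlapped with Atg9a. Vmp1 was first, Wdr45b second and Atg2b last in each of the 6 libraries.

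In the knockouts the means of the highest 4 genes and of Atg2b kept their places and the other 5 changed, with Vmp1 at 49.3 CPM per kb ± 1.13 (SD, n = 3), Wdr45b at 21.1 ± 1.99 and Tmem41b at 6.90 ± 0.472. Atg2a, at 2.81 ± 0.806 CPM per kb, ranked 6, 5 and 5 of the 10 genes in knockouts 1 to 3, against 8, 9 and 8 in controls 1 to 3. Union exons count every isoform, which lowers the level per kb of genes with long alternative exons, and the lengths ran from 3.31 kb for Wdr45 to 13.46 kb for Atg2b.

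**Figure D4:**
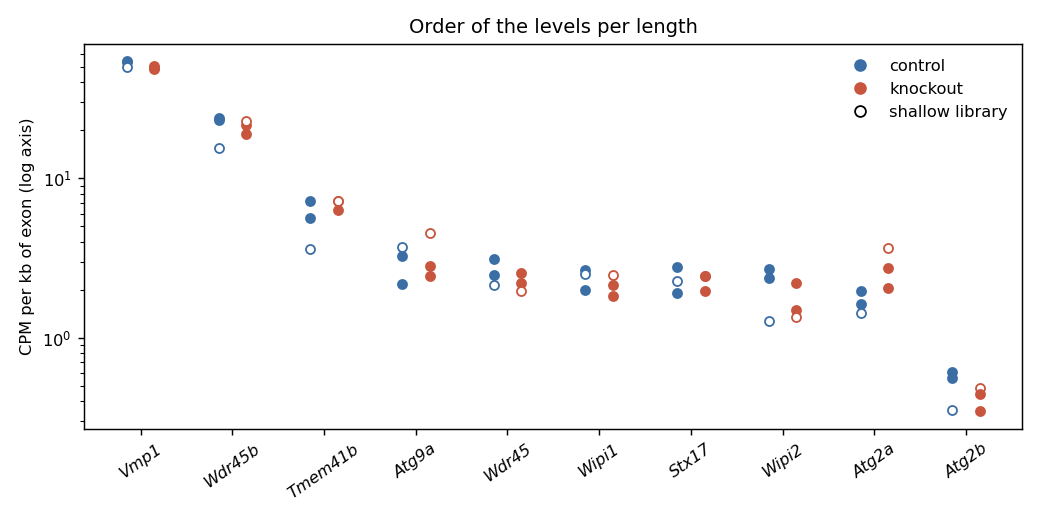
CPM per kb of union exon for each gene and library on a log axis, ordered by the control mean (blue controls, red knockouts, open points shallow libraries). Vmp1 and Wdr45b stand above the rest, Atg2b stands below, and the other genes from Atg9a to Atg2a overlap.

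The rest of the autophagy machinery was read from 7 lists of 66 genes in all. Of these, edgeR, DESeq2 and voom each called 1, the targeted gene Atg7. Over all genes tested 0.0443% were called by edgeR, 4.32% had an unadjusted p under 0.05, and 6.59% had every knockout above every control. In the ULK complex, the kinase complex that starts autophagy, edgeR called 0 of 5 members, and 0 had an unadjusted p under 0.05; the smallest p belonged to Rb1cc1 (log2 fold change -0.37, SE 0.33) and Ulk1 (0.44, SE 0.41). In the class III PI3K complex, which makes the PI3P that WIPI proteins bind, and its phosphatases, edgeR called 0 of 10 and 0 had an unadjusted p under 0.05. Its smallest p-values belonged to the catalytic subunit gene Pik3c3, with a log2 fold change of 0.39 (SE 0.21), and to Nrbf2, another subunit gene, with -1.05 (SE 0.91). Nrbf2 had 0 reads in the shallow control 3. It was at 20.3 and 18.5 CPM in controls 1 and 2, against 7.8, 6.8 and 5.8 CPM across knockouts 1 to 3. In the conjugation list Atg7 was called lower and was also the only 1 of 11 at an unadjusted p under 0.05.

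In the ATG8 family, the lipidated tags of the phagophore, edgeR called 0 of 5 and 1 was higher at an unadjusted p under 0.05. This was Gabarapl1 at 22.1 CPM ± 6.80 (SD, n = 3) among controls and 36.4 CPM ± 2.62 among knockouts (edgeR log2 fold change 0.67, adjusted p = 0.999). Map1lc3b, which encodes the main LC3, was at 309 CPM ± 77.5 and 363 CPM ± 27.6.

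Genes of ATG9 trafficking, such as the AP-4 adaptor that exports ATG9A from the Golgi, had 0 of 11 called and 0 at an unadjusted p under 0.05. Arfip2, which is found on ATG9A vesicles, and the AP-4 subunit gene Ap4s1 had the smallest p, at log2 fold changes of 0.62 (SE 0.39) and -0.59 (SE 0.62).

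The relatives in lipid transfer, with the VPS13 family of bridge-like proteins that ATG2 resembles, had 0 of 7 called and 1 higher at an unadjusted p under 0.05. Vps13c, a lipid transfer protein of endosome and lysosome contacts, was at 16.0 CPM ± 3.97 (SD, n = 3) among controls and 27.2 CPM ± 3.39 among knockouts (edgeR log2 fold change 0.79, SE 0.26, adjusted p = 0.84). Tmem64, a relative of TMEM41B, was at 0.23 (SE 0.22) on the same log2 scale.

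In the fusion list, which holds the partners of STX17 and the HOPS tether, edgeR called 0 of 17, and 1 was higher at an unadjusted p under 0.05. This was the HOPS subunit gene Vps41, at 98.3 CPM ± 14.6 (SD, n = 3) among controls and 128 CPM ± 9.79 among knockouts (edgeR log2 fold change 0.38, adjusted p = 0.999). Stx7, a SNARE of late endosomes, had a log2 fold change of 0.19 (SE 0.16). Over the 7 lists, Gabarapl1, Vps13c, Vps41 and the class III PI3K subunit gene Atg14 each had all knockouts above all controls. Of all genes tested, 6.59% were so separated. Medians over these 7 lists ran from -0.12 for conjugation to 0.23 for the ATG8 family, beside -0.06 for the 10 membrane supply and fusion genes.

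**Figure D5:**
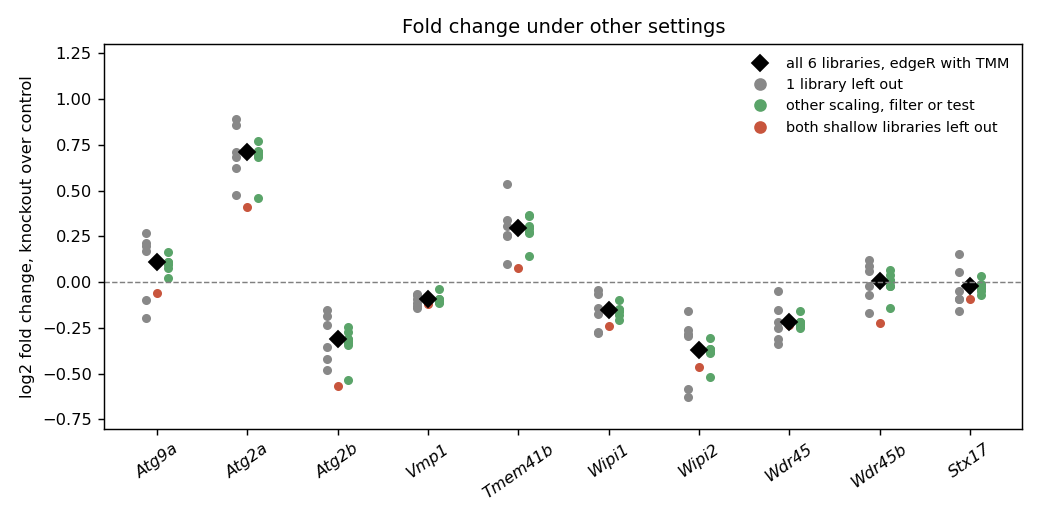
Log2 fold change of each gene with all 6 libraries (black diamonds) and under each alternative: 1 library left out (grey), another scaling, filter or test (green), or both shallow libraries left out (red). Atg2a stays above 0 in every setting run, from 0.41 to 0.89, and Atg9a, Wdr45b and Stx17 lie on both sides of 0.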

How the data were processed

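RNA was measured in sorted cortical microglia of 3 control and 3 knockout mice. The authors deposited raw whole-number read counts for each gene, per the file headers. The submitters' processing notes list STAR, Subread, featureCounts and Salmon and the build GRCm39, without the role of each. Of 55774 rows, 287 with a repeated identifier were dropped, and 0 rows named no gene. EdgeR 4.0.16 in R 4.3.3 kept genes by its default filter, scaled by TMM and fitted a robust quasi-likelihood model with only the group as a term. Benjamini-Hochberg adjustment ran over 15787 genes, and genes were called under 0.05. Standard errors are the log2 fold change divided by the square root of F, and 95% intervals use the t distribution with the fit's degrees of freedom. Alternatives were DESeq2 1.42.0, voom in limma 3.58.1, other scalings and filters, a replicate block and libraries left out. Lengths and exon overlaps come from GENCODE M21, of an earlier build, so gene coordinates are not printed, and 99.5% of genes matched by identifier. Upstream windows were matched by symbol to RefSeq (GRCm38.p6). Only the edgeR step was tested on simulated counts. The 10 genes, the lists and the tests were chosen with earlier results of these data known. Named are all 10 genes, Atg7 and Cx3cr1 as the check of the labels, and in each list the called members or the 2 with the smallest p. P2ry12, Ms4a1, Slc1a3, Pecam1 and Atg14 were added after their values were seen.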

Additional observations from a re-analysis of the deposited data

How the results depend on the processing

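EdgeR called 0 of the 10 genes under every alternative run, as did DESeq2 and voom, while the number called over all genes ran from 2 (without control 1, without knockout 2, or without the robust option) to 102 (no filter), beside 7. The median log2 fold change of the 10 genes was -0.14 to 0.024 with 1 library left out, above 0 only without control 2, and -0.17 without both shallow libraries; the cause was not tested. Of single genes, Atg9a was at -0.059 without both shallow libraries and between -0.20 and 0.27 with 1 library left out. Wdr45b was at -0.022 with no filter, -0.019 in DESeq2, -0.14 in voom and -0.22 without both shallow libraries, and between -0.17 and 0.12 with 1 library left out. Stx17 was at 0.034 with library totals and between -0.16 and 0.16 with 1 library left out. The other 7 genes kept their direction in all 15 alternatives, between 0.41 and 0.89 for Atg2a, -0.57 and -0.15 for Atg2b, -0.14 and -0.040 for Vmp1, 0.076 and 0.54 for Tmem41b, -0.28 and -0.041 for Wipi1, -0.63 and -0.16 for Wipi2, and -0.34 and -0.049 for Wdr45. With 1 library left out, the difference in the Wipi1 share ran from -3.21 to 7.54 points, that in the Wdr45 share from -1.91 to -0.38 and that in the Atg2a share from 10.3 to 15.1. Without both shallow libraries the Wdr45 difference was 0.020 points. The labels do not say whether replicate numbers pair the mice. The deviations of same-numbered libraries correlated at 0.33, -0.30 and -0.13. The highest correlation, 0.38, joined both shallow libraries, control 3 and knockout 2, so these values cannot decide the pairing. With the replicate block edgeR called 0 of the 10 genes and 25 of all genes. The block cannot change the mean differences in the paralog shares, 1.79, -1.07 and 13 points (exact sign-flip p = 1, 0.25 and 0.25). With 3 libraries per group, 0.25 is the smallest p that the sign-flip test allows. Read numbers were small for the low genes, and control 3 held 6 to 27 reads for 8 of the 10. Exact Poisson intervals take every read as a separate molecule, and no molecular identifiers are mentioned. They therefore cannot decide whether counting error covers the departures of control 3. The interval of control 3 lay below both other controls for Wdr45b, Tmem41b and Wipi2, but not for the remaining genes. For Wdr45b it was 56.9 to 86.9 CPM, against 109 and 105 CPM in controls 1 and 2. The cause was not tested.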
